A study of Mus musculus with 80 samples.

Results

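The genes described here are 10 standard markers of endoplasmic reticulum stress in the subcutaneous white fat of male mice: Hspa5, Hsp90b1, Dnajb9, Sdf2l1, Pdia4, Creld2, Herpud1, Xbp1, Atf4 and Ddit3. They were chosen by gene symbol out of 38827 symbols on the array. Each of the 10 symbols had 1 feature on the array, and no filter on low values was applied, so all 10 were tested. High fat pools came from mice given Harlan 06414 diet from week 8 and killed at 29 weeks. Chow pools came from mice that stayed on Harlan 2018 diet to the same age, and both were fasted from 6 pm to 9 am before tissue collection. The strains were 40 of the BXD family, a panel of inbred mice bred from a C57BL/6J by DBA/2J cross, and both of these parents. Each array was 1 pool, made from equal amounts of RNA of about 5 mice, so the spread between animals was not measured. There were 38 High fat and 42 Chow arrays, and 38 strains (36 BXD strains and the 2 parents) had 1 array on each diet. BXD56, BXD60, BXD92a and BXD96 were on Chow alone.

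The endoplasmic reticulum folds proteins that enter the secretory pathway. When unfolded proteins accumulate there, the sensors IRE1 (Ern1), PERK (Eif2ak3) and ATF6 start the unfolded protein response. IRE1 splices the mRNA of Xbp1, PERK favours translation of Atf4, and ATF6 is cut into an active factor by proteases of the Golgi apparatus. These factors raise transcription of chaperones, of enzymes that form disulfide bonds, and of the machinery that removes misfolded proteins. In fat tissue this response is much studied in obesity. An array that measures the whole transcript does not report Xbp1 splicing or Atf4 translation.

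Several members are textbook targets of these factors, and some of their promoters carry elements that ATF6 and XBP1 recognise. The stretches below show those elements, from RefSeq on GRCm38.p6, 5′ to 3′ on the strand of the gene, with 15 bases either side of the outermost matches. Capitals mark each match to the endoplasmic reticulum stress element ERSE (CCAAT, any 9 bases, CCACG), to ERSE-II (ATTGG, any 1 base, CCACG), to the core of the unfolded protein response element (TGACGTG) or to the core of the C/EBP-ATF element bound by ATF4 (TTGCATCA), searched on both strands.
Hspa5, chr2:34771918-34772058, plus strand: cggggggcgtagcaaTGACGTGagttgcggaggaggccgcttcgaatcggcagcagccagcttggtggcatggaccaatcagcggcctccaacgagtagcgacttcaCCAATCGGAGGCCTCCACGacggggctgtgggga
Hsp90b1, chr10:86705518-86705671, minus strand: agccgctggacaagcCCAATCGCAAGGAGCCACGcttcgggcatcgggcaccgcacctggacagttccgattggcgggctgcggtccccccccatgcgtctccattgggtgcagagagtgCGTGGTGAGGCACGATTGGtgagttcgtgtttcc
Creld2, chr15:88819505-88819553, plus strand: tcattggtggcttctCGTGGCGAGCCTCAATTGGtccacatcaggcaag
Herpud1, chr8:94386302-94386402, plus strand: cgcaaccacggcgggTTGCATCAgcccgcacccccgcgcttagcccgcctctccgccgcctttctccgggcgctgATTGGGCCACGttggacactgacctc

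All 10 members had a promoter window, from 250 bases before to 50 bases after the annotated start. The ERSE was found in 3 of the 10, Hspa5, Hsp90b1 (which had 2 matches) and Creld2, against 0.119% of 32851 mouse promoter windows of the same length. The match in Hspa5 lay 65 to 47 bases before the start. The ERSE-II was found in Herpud1 alone of the members and in 0.037% of all windows. The unfolded protein response core was found in Hspa5 (2.01% of all windows) and the C/EBP-ATF core in Herpud1 (0.895%). The CCAAT box by itself, which is part of the ERSE and in reverse complement of the ERSE-II, was in 9 of 10 members and 37.4% of windows. These matches are letters in a window and do not show that a factor was bound in this tissue. Several members are known targets of the factors that recognise these elements, so the counts are no independent test of enrichment.

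Levels are the authors' deposited scores, scaled so that each array averages 8 with an SD of 2. A difference of 1 score unit is 0.5 array SD, no fold can be computed from it, and each change is relative to all other features of the array. Scores of different genes come from different probes and were not compared with each other. Levels, ranges and counts of arrays in the results below cover the 38 strains with both diets. The Chow arrays of BXD56, BXD60, BXD92a and BXD96 are left out of them unless named. Unless stated otherwise, a change is High fat minus Chow within a strain, as mean ± SD over 38 strains, with limma's adjusted p over all 38827 genes and a threshold of 0.05. The replicate was the strain, 1 pool per diet, so the p-values reflect variation among strains and not among animals.

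In 15 of the 38 strains the 2 arrays did not match each other over strain-dependent genes. Over 100 genes whose levels fell into 2 clusters across strains, the High fat and Chow arrays of 23 strains correlated at 0.777 to 0.959. In 22 of these the strain's own High fat array was the best match. The Chow array of BXD43, the remaining strain, correlated at 0.833 with its own and at 0.835 with that of BXD63. Those of BXD51, BXD55, BXD63, BXD73, BXD75, BXD79, BXD80, BXD81, BXD83, BXD84, BXD85, BXD87, BXD89, BXD90 and BXD95 correlated at -0.272 to 0.314, and in 14 of these the Chow array matched the High fat array of another strain (0.799 to 0.922). No array was moved. The check did not bear on the diet labels. From BXD79 to BXD95, each Chow array that did not match its own resembled the High fat array of a strain listed earlier, such as BXD73 for BXD79 (0.903). The Chow arrays of BXD51 and BXD55 each matched the other's High fat array (0.799 and 0.922). Whether any of these arrays carries another strain's label was not tested. Changes in the 15 strains pair arrays by label and may join 2 strains, so results are also given for the 23 matching strains.

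The tissue carried its defining markers. Adiponectin (Adipoq) had 13.16 ± 0.166 on High fat and 13.18 ± 0.175 on Chow, with a change of -0.02 (limma adjusted p = 0.697). Of 12 macrophage markers, 10 were higher on High fat and 0 lower, Emr1 (0.98), Cd68 (1.26) and Csf1r (0.42) among them, and their mean ranged from 9.82 to 11.8 on High fat and from 9.51 to 11.3 on Chow. Of 14 skeletal muscle markers, 0 were higher and 12 lower, with Acta1, Myh4 and Myh1 among them and list means from 8.82 to 13.99 on High fat and from 8.68 to 14.52 on Chow. Of 13 B cell and lymph node markers, 0 were higher and 9 lower, with list means from 8.30 to 11.5 on High fat and from 8.57 to 11.4 on Chow. Of 10 plasma cell markers 2 were higher and 3 lower, with list means from 8.05 to 9.40 on High fat and from 8.16 to 9.27 on Chow. Of 10 keratinocyte markers 0 were higher and 7 lower, of 10 fibroblast markers 4 were higher and 2 lower, and of 10 fat cell markers 0 were higher and 4 lower. In whole tissue, a change in the number of cells of a type and a change in RNA per cell cannot be told apart.

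On High fat, 7 of the 10 members were higher than on Chow and 0 were lower. Those that rose were Dnajb9, Sdf2l1, Hspa5, Atf4, Ddit3, Hsp90b1 and Creld2, while Herpud1, Xbp1 and Pdia4 did not pass the threshold. Diet moved much of the transcriptome: 36.7% of all genes were called higher and 24.5% lower. The median change of the 10 members was 0.16, against 0.03 over all genes. Of the members, 4 rose in at least 30 of 38 strains, as did 21.9% of all genes. In the 23 matching strains the count of members higher was again 7, with 32.5% of all genes higher.

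**Figure D1:**
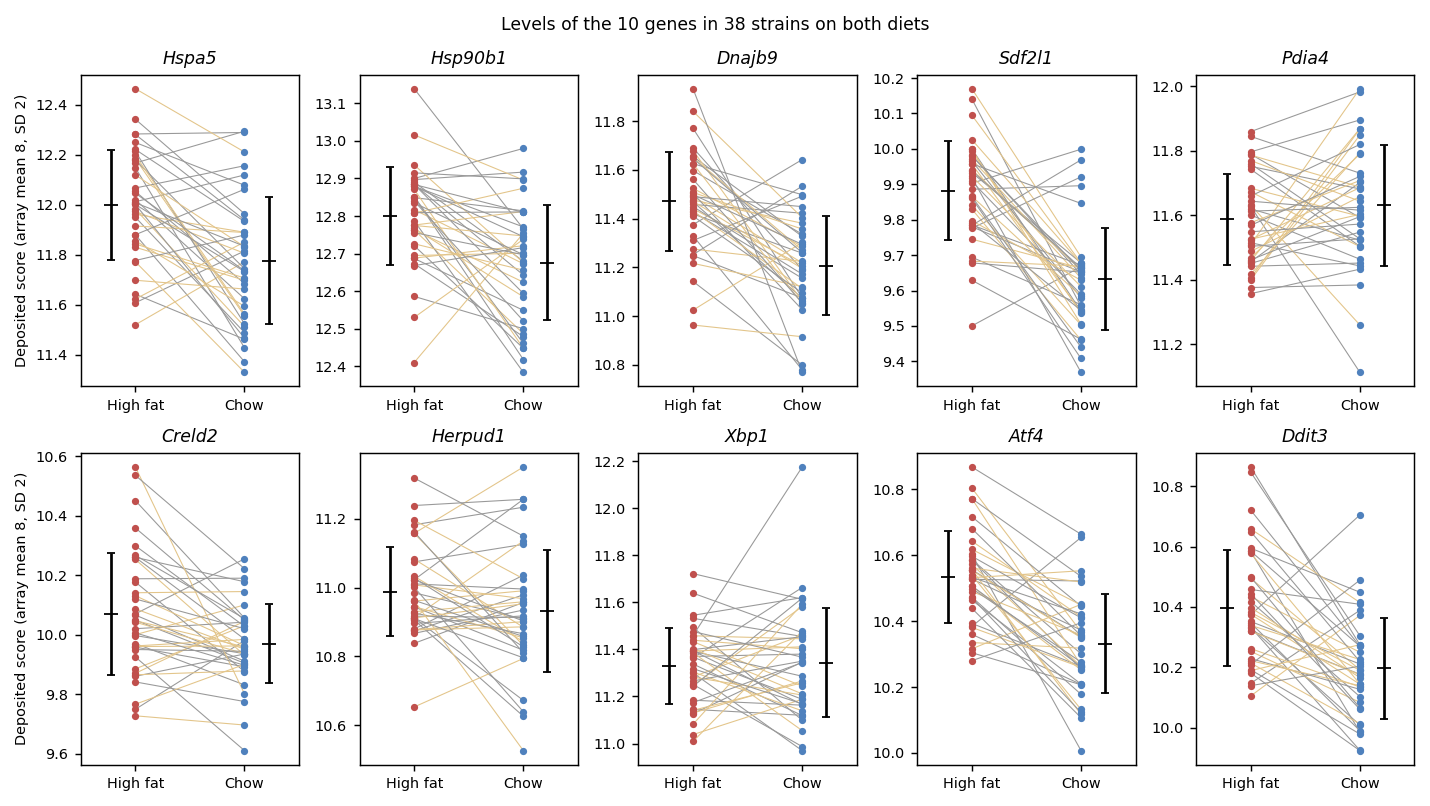
Deposited scores (array mean 8, SD 2) of the 10 genes in 38 strains, High fat on the left and Chow on the right of each panel; lines join the arrays of 1 strain (grey where the 2 arrays matched, tan where they did not) and bars beside the points are mean ± SD. The groups overlap for every gene, and 5 Chow arrays of Sdf2l1 stand above the other 33.

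Among the chaperones, Hspa5 encodes BiP, the main Hsp70 of the endoplasmic reticulum, which also holds the sensors inactive. Its score had a lowest value of 11.52, a median of 12.01 and a highest value of 12.46 on High fat, against 11.33, 11.76 and 12.29 on Chow. The groups overlapped: 33 of 38 High fat arrays were above the Chow median, but only 2 were above the highest paired Chow array. BXD92a, on Chow alone and outside these ranges, had 12.38. The change was 0.22 ± 0.27, with 29 of 38 strains higher (limma adjusted p = 2.38e-05). It ran from -0.25 in BXD63, whose 2 arrays did not match, to 0.72 in BXD48. With the B cell, skeletal muscle and keratinocyte marker means as covariates (called tissue covariates here), it was 0.13 (limma adjusted p = 0.0317).

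Hsp90b1 encodes GRP94, the Hsp90 of the endoplasmic reticulum. Its lowest, median and highest scores were 12.41, 12.81 and 13.14 on High fat, against 12.38, 12.70 and 12.98 on Chow. High fat arrays were mostly in the upper part of the Chow range, with 30 of 38 above the Chow median. The change was 0.12 ± 0.18, higher in 28 strains (limma adjusted p = 0.000297). Its lowest change, in BXD80, was -0.34 and its highest, in BXD48, was 0.43. With the tissue covariates, the change of Hsp90b1 was 0.08 (limma adjusted p = 0.05005), and the call was lost.

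The co-chaperones Dnajb9 and Sdf2l1 had the highest mean changes of the 10. Dnajb9 encodes ERdj4, a J-domain partner of BiP, and its lowest, median and highest scores were 10.96, 11.47 and 11.93 on High fat, against 10.77, 11.21 and 11.64 on Chow. On High fat 8 arrays stood above the highest Chow array. The change was 0.26 ± 0.28 and was positive in 34 of 38 strains (limma adjusted p = 3.22e-06). C57BL/6J had both the highest High fat and the lowest Chow score of Dnajb9, and so the highest change, 1.16, while BXD101 had the lowest, -0.28. The C57BL/6J arrays were the 2 least correlated with the mean array (0.9818 on High fat and 0.9828 on Chow).

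Sdf2l1 encodes a partner of the J-domain protein ERdj3. Its lowest, median and highest scores were 9.50, 9.91 and 10.17 on High fat, against 9.37, 9.64 and 9.999 on Chow. Of the High fat arrays, 36 of 38 were above the Chow median. The change was 0.25 ± 0.20, higher in 33 strains (limma adjusted p = 2.45e-08). The Chow arrays of the 38 paired strains held a gap: 33 lay at or below 9.70 and 5 at or above 9.846 (BXD65, C57BL/6J, BXD61, BXD69 and BXD99). In 4 of these 5 strains Sdf2l1 was lower on High fat, out of 5 such strains in all. A high Chow score by itself lowers High fat minus Chow, so this count is not a separate result. This gap was picked out after the values were seen, and BXD92a, on Chow alone, had 9.728, within it.

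The disulfide genes differed from each other. Creld2, which encodes a secreted protein with disulfide isomerase activity, had lowest, median and highest scores of 9.73, 10.04 and 10.56 on High fat, against 9.61, 9.96 and 10.26 on Chow. Of the High fat arrays, 8 were above the highest Chow array, and the spread over strains was 0.205 (SD) on High fat and 0.134 on Chow. The change was 0.10 ± 0.19, higher in 25 of 38 strains (limma adjusted p = 0.00556). It was highest, at 0.76, in BXD79, a strain whose 2 arrays did not match. After quantile normalization the change was 0.05 (limma adjusted p = 0.159).

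Pdia4 encodes ERp72, a protein disulfide isomerase. Its lowest, median and highest scores were 11.36, 11.57 and 11.86 on High fat, against 11.11, 11.62 and 11.99 on Chow, and the High fat arrays lay within the Chow range. The change was -0.04 ± 0.23, with 15 strains higher and 23 lower (limma adjusted p = 0.304). After quantile normalization it was -0.09 (limma adjusted p = 0.0289), a call of lower, and in the 23 matching strains it was 0.02 (limma adjusted p = 0.600).

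Herpud1 encodes HERP, a membrane protein of endoplasmic reticulum-associated degradation. Its lowest, median and highest scores were 10.65, 10.96 and 11.32 on High fat, against 10.53, 10.91 and 11.35 on Chow. BXD96, on Chow alone and outside these ranges, had 11.77. No High fat array (0) was above the highest Chow array. The change was 0.06 ± 0.17, higher in 21 strains (limma adjusted p = 0.0713). It passed the threshold with the tissue covariates (0.10, limma adjusted p = 0.0127) and without BXD45, BXD51, BXD55 or BXD62 (limma adjusted p from 0.0386 to 0.0490). After quantile normalization it was -0.00144.

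Of the transcription factors, Atf4, the factor translated after PERK activation, had lowest, median and highest scores of 10.28, 10.53 and 10.87 on High fat, against 10.01, 10.33 and 10.66 on Chow. On Chow 17 arrays lay below every High fat array, more than for any other member. The change was 0.20 ± 0.18, higher in 34 strains (limma adjusted p = 1.11e-07). It ran from -0.27 in BXD61 to 0.60 in BXD43.

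Ddit3 encodes CHOP, a factor downstream of ATF4 known for its part in stress-induced cell death. Its lowest, median and highest scores were 10.11, 10.36 and 10.86 on High fat, against 9.92, 10.18 and 10.71 on Chow. Of the Chow arrays 11 lay below every High fat array, and 1 (BXD69) stood apart from the other 37. The change was 0.20 ± 0.23, higher in 32 strains (limma adjusted p = 1.34e-05), and 0.12 with the tissue covariates (limma adjusted p = 0.0254).

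Xbp1 encodes the factor whose mRNA IRE1 splices. Its lowest, median and highest scores were 11.01, 11.35 and 11.72 on High fat, against 10.97, 11.35 and 12.18 on Chow, and the High fat range lay within the Chow range. The highest Chow array, BXD43, was 0.512 above the next. The change was -0.01 ± 0.25, higher in 21 strains and lower in 17 (limma adjusted p = 0.775).

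Seen by strain, a median of 7 of the 10 members were higher on High fat. All 10 were higher in 4 strains (BXD64, BXD66, BXD70 and BXD71), and fewer than 5 in 2 strains, BXD80 (3 members) and BXD61 (4 members). The mean change of the members was highest in BXD48 (0.32) and lowest in BXD80 (-0.07). The 2 arrays of BXD80 did not match each other.

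**Figure D2:**
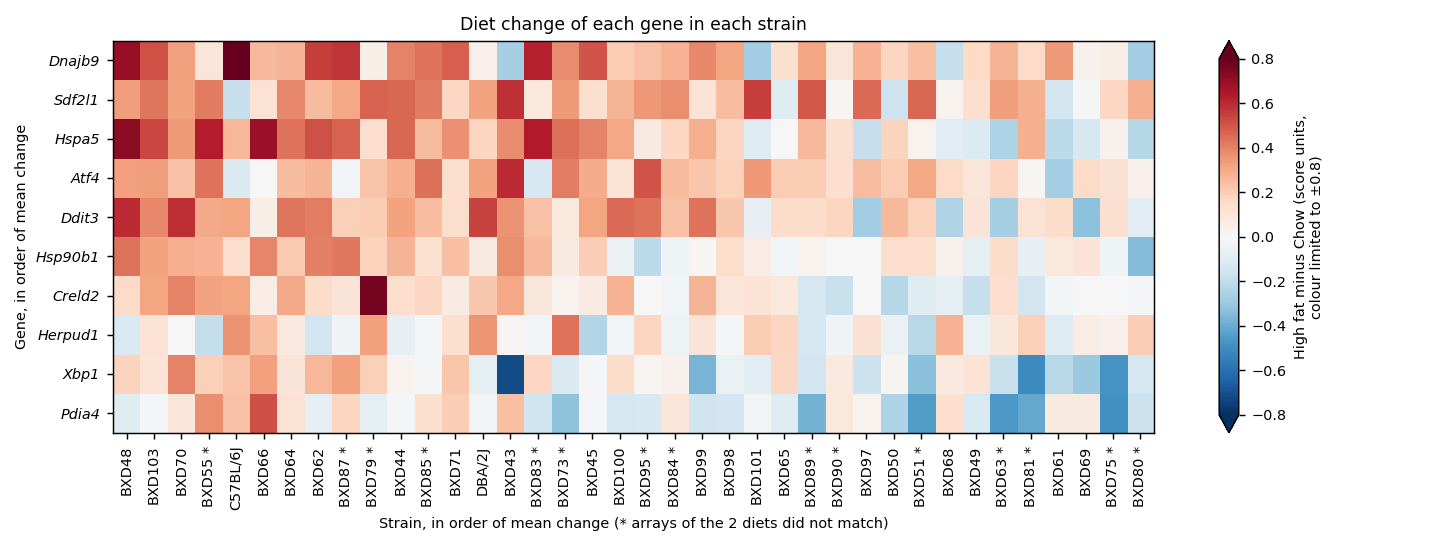
Change, High fat minus Chow in score units, of each of the 10 genes (down the page) in each of 38 strains (across), both in order of mean change; an asterisk marks strains whose 2 arrays did not match. Dnajb9, Sdf2l1, Hspa5, Atf4 and Ddit3 are mostly positive, and Xbp1 and Pdia4 hold both signs, with values down to -0.72 for Xbp1 in BXD43.

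The comparison of strains asked whether a strain's level of a member was alike on both diets. Levels differed between strains for 1 of 10 members, Herpud1, against 10.4% of all genes, by limma's moderated F test with diet in the model. The intraclass correlation, the share of variance that lies between strains once diet means are removed, was 0.42 for Herpud1 (limma adjusted p = 0.0427). With the tissue covariates that call was lost (limma adjusted p = 0.0510). It was 0.38 for Creld2 (limma adjusted p = 0.0623), 0.36 for Hspa5 (limma adjusted p = 0.0634) and -0.03 for Sdf2l1 (limma adjusted p = 0.686). Hspa5 was called with the tissue covariates (limma adjusted p = 0.0184), after quantile normalization (0.0237) and without BXD80, BXD97 and BXD103 (0.0405). The median was 0.23 over the members and 0.15 over all genes.

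In the 23 matching strains 3 of 10 members were called, against 17.7% of all genes. These were Creld2 (0.57, limma adjusted p = 0.0148), Pdia4 (0.49, limma adjusted p = 0.0390) and Herpud1 (0.49, limma adjusted p = 0.0467). Pdia4 thus had an intraclass correlation of 0.49 in the matching strains and of 0.07 in all 38. The median there was 0.37 over the members and 0.19 over all genes.

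High fat scores were also correlated with Chow scores over strains. None of the 10 members (0) was called over 38 strains, against 3.75% of all genes, and 3 of the 10 had an unadjusted permutation p below 0.05: Herpud1, Creld2 and Hspa5. Over the 23 matching strains 1 was called, Creld2, against 11.2% of all genes. Its Pearson's r was 0.59 (permutation p = 0.00262, adjusted 0.0320) and its Spearman's rho 0.69 (permutation p = 0.00039, adjusted 0.0129). Without the 2 strains farthest from the Chow median, r was 0.69.

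**Figure D3:**
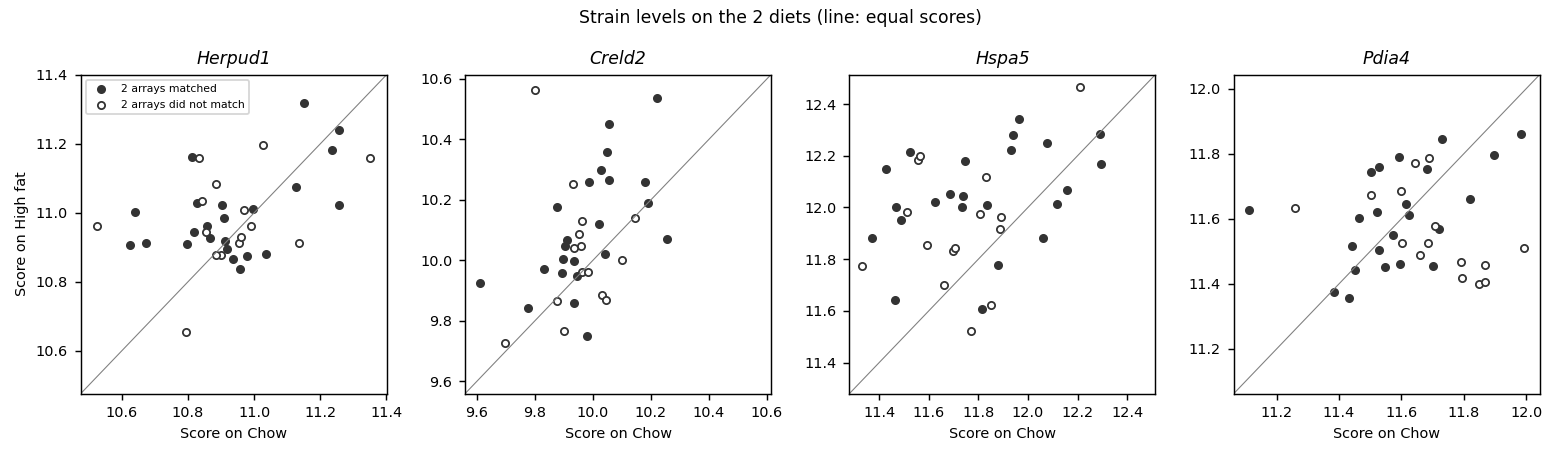
High fat score against Chow score of Herpud1, Creld2, Hspa5 and Pdia4 in 38 strains; filled points are the 23 strains whose 2 arrays matched, open points the other 15, and the line marks equal scores. Points of Hspa5 lie mostly above the line, and for Pdia4 the filled points follow it more closely than the open ones (intraclass correlation 0.49 over the filled points, 0.07 over all).

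The difference between the parents, DBA/2J minus C57BL/6J, passed the test for 0 of 10 members by limma's contrast (0 also at an unadjusted p below 0.05), against 11.7% of all genes. Each parent had 1 array per diet, so these differences rest on 4 arrays and on the spread of all 38 strains. Those of C57BL/6J were the 2 arrays least correlated with the mean array (0.9818 on High fat and 0.9828 on Chow). Xbp1 had 11.55 on High fat and 11.62 on Chow in DBA/2J, against 11.39 and 11.17 in C57BL/6J, a difference of 0.30 ± 0.17 (SE, limma adjusted p = 0.259). Hspa5 had 12.25 and 12.08 in DBA/2J, against 12.001 and 11.73 in C57BL/6J, a difference of 0.30 ± 0.19 (SE, limma adjusted p = 0.315). The BXD strains ranged past the parents: averaged over diets, 29 of 36 had less Ddit3 than both parents and 0 had more. Creld2 had the same counts, and for Hsp90b1 and Sdf2l1 28 of 36 lay below both parents and 5 above both. For Herpud1, 11 of 36 lay above both parents and 4 below both. These counts carry no test, and they include the strains whose 2 arrays did not match.

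Other genes of the response were read from 5 lists chosen by function. Of their 92 measured genes (94 were listed), 63 were higher on High fat and 7 lower, beside the 36.7% and 24.5% of all genes. In the 23 matching strains 64 were higher and 3 lower, beside 32.5% and 22.2% of all genes. With the tissue covariates 46 were higher and 6 lower, beside 29.8% and 17.5% of all genes. The lists hold no member.

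Among the sensors and the proteases that activate ATF6, 4 of 5 measured genes were higher and 0 lower. Atf6b, a relative of ATF6, changed by 0.28 ± 0.16 (36 of 38 strains higher, limma adjusted p = 9.08e-12). Atf6 changed by 0.17 ± 0.24 (29 strains, limma adjusted p = 0.000210), and the site-1 protease gene Mbtps1 by 0.17 ± 0.15 (35 strains, limma adjusted p = 2.38e-07). With the tissue covariates the call of Atf6 was lost (0.09, limma adjusted p = 0.127). Eif2ak3, which encodes PERK, changed by 0.17 ± 0.16 (32 strains, limma adjusted p = 1.28e-06). Ern1, which encodes IRE1, had 9.54 ± 0.112 on High fat and 9.52 ± 0.0911 on Chow (limma adjusted p = 0.444).

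Of 23 folding genes, 18 were higher and 0 lower. The prolyl isomerase gene Fkbp14 had 9.63 ± 0.180 on High fat and 9.31 ± 0.224 on Chow, a change of 0.32 (34 strains higher, limma adjusted p = 2.03e-08). The disulfide isomerase gene Pdia5 changed by 0.30 (37 strains, limma adjusted p = 7.89e-12). The J-domain gene Dnajb11, which encodes ERdj3, changed by 0.25 (34 strains, limma adjusted p = 7.45e-09), and P4hb, another disulfide isomerase gene, by 0.25 (34 strains, limma adjusted p = 6.24e-07). The call was not made for Canx, Pdia3, Ero1lb, Erp44 or Manf, whose changes lay between -0.06 and 0.06.

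Of 18 genes of endoplasmic reticulum-associated degradation, 13 were higher and 1 lower, the ubiquitin-conjugating enzyme gene Ube2j2 (-0.05, limma adjusted p = 0.0125). Ube2j2 was not called in the 23 matching strains (limma adjusted p = 0.102) or with the tissue covariates (0.0728). Edem1, which encodes a lectin that delivers misfolded glycoproteins to degradation, had 11.96 ± 0.262 on High fat and 11.38 ± 0.354 on Chow. Its change of 0.58 ± 0.40 was the highest of this list (35 strains, limma adjusted p = 2.30e-10). Sel1l, the adaptor of the ubiquitin ligase HRD1, changed by 0.20 (33 strains, limma adjusted p = 3.98e-05), a call lost with the tissue covariates (0.10, limma adjusted p = 0.0639). Edem2 and Herpud2, the paralog of Herpud1, changed by 0.19 each (35 and 32 strains, limma adjusted p = 1.79e-08 and 1.74e-07).

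Of 21 genes of translocation, signal peptide cleavage and vesicle transport, 12 were higher and 2 lower. Kdelr3, a receptor that returns resident proteins to the endoplasmic reticulum, had 9.14 ± 0.279 on High fat and 8.66 ± 0.241 on Chow, a change of 0.48 (35 strains, limma adjusted p = 3.21e-10). Sec24d, a coat protein of export vesicles, changed by 0.45 (34 strains, limma adjusted p = 2.59e-08). Ssr3, of the translocon-associated complex, changed by 0.31 (33 strains, limma adjusted p = 2.09e-07), and Kdelr2 by 0.26 (32 strains, limma adjusted p = 1.09e-05). Sec61g and Sec62, both of the translocon, were lower, but not called in the 23 matching strains (limma adjusted p = 0.422 and 0.306). With the tissue covariates 7 of this list were higher and 2 lower, beside 29.8% and 17.5% of all genes.

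Of 25 measured targets of ATF4, 16 were higher and 4 lower, so this list held both directions. Atf3, a stress-induced factor, had 10.3 ± 0.484 on High fat and 9.39 ± 0.351 on Chow, a change of 0.88 (36 strains higher, limma adjusted p = 5.55e-12). Psat1, an enzyme of serine synthesis, changed by 0.34 (33 strains, limma adjusted p = 1.46e-05). Those lower were the cystine transporter gene Slc7a11 (-0.41, 32 strains lower, limma adjusted p = 4.77e-06), the secreted hormone gene Stc2 (-0.30, 36 strains lower, limma adjusted p = 1.32e-09), Asns and Phgdh. Asparagine synthetase (Asns) changed by -0.24 and phosphoglycerate dehydrogenase (Phgdh) by -0.15. In the 23 matching strains Asns was not called (-0.13, limma adjusted p = 0.138).

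**Figure D4:**
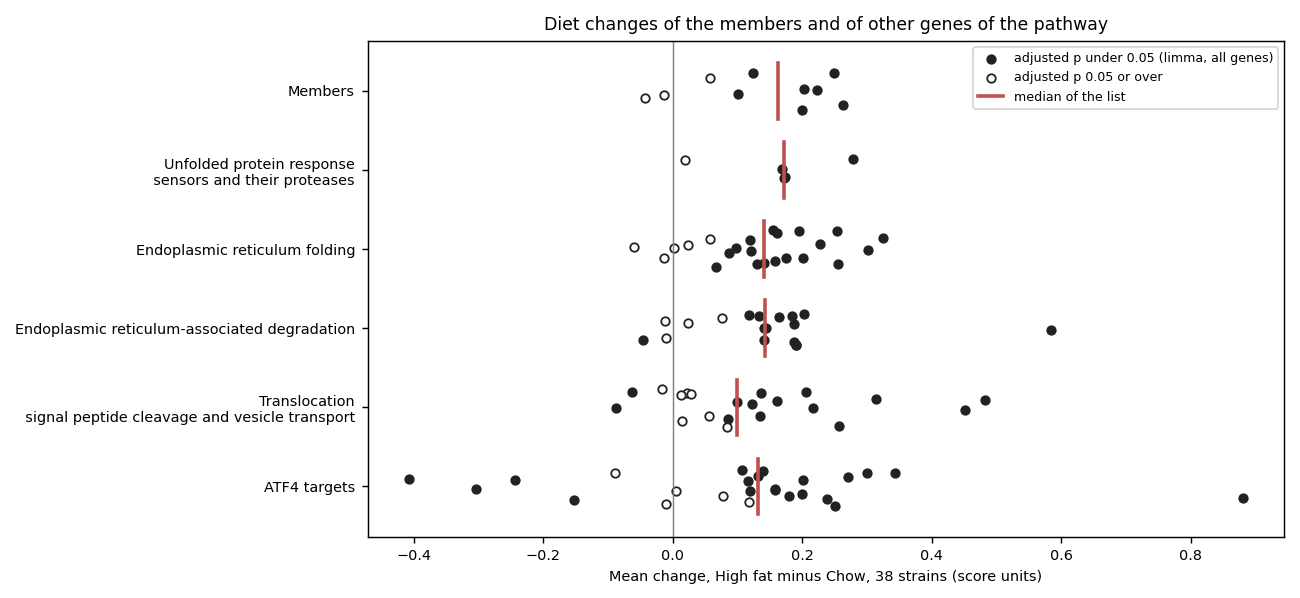
Mean change, High fat minus Chow in score units over 38 strains, of each member and of each gene of 5 lists, 1 point per gene; filled points passed limma's adjusted p threshold, open points did not, and red lines are medians. The members' median is 0.16, most points of each list lie above 0, and the ATF4 targets run from -0.41 (Slc7a11) to 0.88 (Atf3).

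The changes of the members were next correlated with each other over the 38 strains, 45 pairs in all. A pair was called where the adjusted permutation p (over all genes, the larger of the 2 directions) was below 0.05. There were 4 such pairs of 45, against 7.65% of all relations between a member and another gene. That share, and those given below for pairs, took the adjusted p of 1 direction only. It is thus a looser rule than the one for pairs, and the 2 are not strictly comparable. The 2 genes of a pair share the same arrays. Hspa5 and Hsp90b1 had r = 0.70 (permutation p = 1e-05, the smallest possible, adjusted 0.00338; rho = 0.68, permutation p = 2e-05, adjusted 0.00363). Without the 2 strains farthest from the median, r was 0.70 or 0.68, depending on which gene defined them.

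Hspa5 and Ddit3 had r = 0.63 (permutation p = 4e-05, adjusted 0.00196; rho = 0.56, permutation p = 0.00034, adjusted 0.0121), and 0.56 or 0.57 without 2 strains. Hspa5 and Dnajb9 had r = 0.49 (permutation p = 0.00157, adjusted 0.0186; rho = 0.56, permutation p = 0.00034, adjusted 0.00881), and 0.47 or 0.54 without 2 strains. That pair was not called after quantile normalization (r = 0.41, permutation adjusted p = 0.0834) or in the 23 matching strains (r = 0.45, permutation adjusted p = 0.172). Sdf2l1 and Atf4 had r = 0.64 (permutation p = 3e-05, adjusted 0.0107; rho = 0.67, permutation p = 2e-05, adjusted 0.0204), and 0.64 or 0.54 without 2 strains. Without the parents, over 36 BXD strains, it was not called (r = 0.60, permutation adjusted p = 0.0613). Spearman's rho also called Hspa5 with Xbp1 (rho = 0.50, permutation p = 0.00167, adjusted 0.0260; r = 0.40) and Hsp90b1 with Dnajb9 (rho = 0.48, permutation p = 0.003, adjusted 0.0457; r = 0.42). By r, Hspa5 was in 3 of the 4 pairs, and the fourth joined a co-chaperone with a transcription factor.

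In the 23 matching strains 3 pairs were called, against 2.75% of all relations: Hspa5 with Hsp90b1 (r = 0.80, permutation adjusted p = 0.0353), Hspa5 with Ddit3 (r = 0.68, permutation adjusted p = 0.0231, but 0.0961 by rho) and Sdf2l1 with Atf4 (r = 0.73, permutation adjusted p = 0.0157). There rho also called Creld2 with Ddit3 (rho = 0.76, permutation adjusted p = 0.0441; r = 0.62, permutation adjusted p = 0.175). Levels gave 8 called pairs of 45 on High fat, against 5.74% of all relations, and 8 on Chow, against 5.54%. Hspa5 with Hsp90b1 (r = 0.71 on High fat, 0.77 on Chow), with Dnajb9 (0.58 and 0.57), with Xbp1 (0.55 and 0.62) and with Ddit3 (0.68 and 0.63) were called on both diets by the permutation test.

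Over the 76 paired arrays, with diet means removed, the genes most like the mean of the 10 standardised members were described by their Pearson's r, with no test. They were Calr (0.77), Ostc (0.77), Pdia6 (0.77), Rpn1 (0.76), Snx6 (0.74), Stip1 (0.73), Clcn5 (0.73), Sec61a1 (0.73), Gm15459 (0.72) and Pla2g15 (0.72). Calr encodes calreticulin, Pdia6 a disulfide isomerase, Ostc and Rpn1 subunits of the oligosaccharyltransferase, and Sec61a1 the translocon channel. Among the members, the correlation with that mean, which contains them, was highest for Hspa5 (0.84) and lowest for Herpud1 (0.30) and Atf4 (0.31).

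Single members had different nearest genes over the same 76 arrays. For Hspa5 they were Magt1 (0.87), Calr (0.87) and Pdia3 (0.84), and for Hsp90b1 Canx (0.80), Pdia3 (0.78) and Hspa5 (0.74). For Creld2 they were Hyou1 (0.76), a chaperone of the endoplasmic reticulum, Mcm5 (0.69) and Nifk (0.69), and for Sdf2l1 Manf (0.68), a secreted stress protein, Bax (0.66) and Incenp (0.66). For Ddit3 they were Dgat2 (0.78), an enzyme of triglyceride synthesis, Myo19 (0.78) and Serpinh1 (0.77). For Dnajb9 they were Naa50 (0.79), Cacybp (0.74) and Gm6568 (0.74), and for Atf4 Ap2s1 (0.80), Ncaph2 (0.78) and Gnb2 (0.77). For Xbp1 they were Nfya (0.67), a subunit of the CCAAT-binding factor NF-Y, Papola (0.67) and Tdp1 (0.66). For Pdia4 they included Gm16580 (0.62) and Eef1a1 (0.62), and for Herpud1 they were Syngr2, 4831440D22Rik and Stat5b (0.58 to 0.59).

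The members' changes were also set against the changes of Lep, the fat cell hormone leptin, and of 4 tissue scores over strains, 50 relations in all. Lep had lowest, median and highest scores of 11.6, 14.6 and 15.1 on High fat, against 12.2, 13.9 and 14.9 on Chow, and was higher in 34 of 38 strains. Of the members 2 of 10 were called against Lep, against 15.6% of all genes. Hspa5 had r = 0.58 (permutation p = 9e-05, adjusted 0.00200; rho = 0.54, permutation p = 0.00046, adjusted 0.0114). Ddit3 had r = 0.55 (permutation p = 0.00031, adjusted 0.00490; rho = 0.56, permutation p = 0.00037, adjusted 0.0100). Without BXD55 and BXD63, whose Lep changes were farthest from the median, r was 0.48 for each.

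Against the macrophage score 2 of 10 members were called, against 4.76% of all genes. Hspa5 had r = 0.64 (permutation p = 3e-05, adjusted 0.00218; rho = 0.65, permutation p = 4e-05, adjusted 0.00299), and 0.56 without BXD55 and BXD61. Hsp90b1 had r = 0.61 (permutation p = 4e-05, adjusted 0.00269; rho = 0.67, permutation p = 1e-05, adjusted 0.00105), and 0.66 without those strains. Creld2 was called by rho alone (rho = 0.54, permutation p = 0.00065, adjusted 0.0227; r = 0.38, adjusted 0.158). Herpud1 was called against the plasma cell score (r = 0.47, permutation p = 0.00274, adjusted 0.0460; rho = 0.49, permutation p = 0.00184, adjusted 0.0296), with 6.23% of all genes, and had r = 0.46 without BXD83 and BXD79. No member (0) was called against the B cell score or the muscle score, with 7.69% and 2.75% of all genes.

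In the 23 matching strains these relations were not called. Hspa5 with Lep had r = 0.56 (permutation adjusted p = 0.0824) and Ddit3 with Lep 0.50 (permutation adjusted p = 0.141), where 4.91% of all genes were called. Hspa5 with the macrophage score had r = 0.53 (permutation adjusted p = 0.185), Hsp90b1 0.57 (permutation adjusted p = 0.120), and Herpud1 with the plasma cell score 0.37 (permutation adjusted p = 0.424), and rho called none of these 5. Atf4 was called there against the macrophage score (r = 0.71, permutation p = 0.00027, adjusted 0.0250; rho = 0.60, permutation p = 0.00316, adjusted 0.171), with 1.6% of all genes. Its r was 0.40 without BXD43 and BXD61, so the relation rests on those strains. The part of macrophages or of fat mass in the members' changes was not tested.

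**Figure D5:**
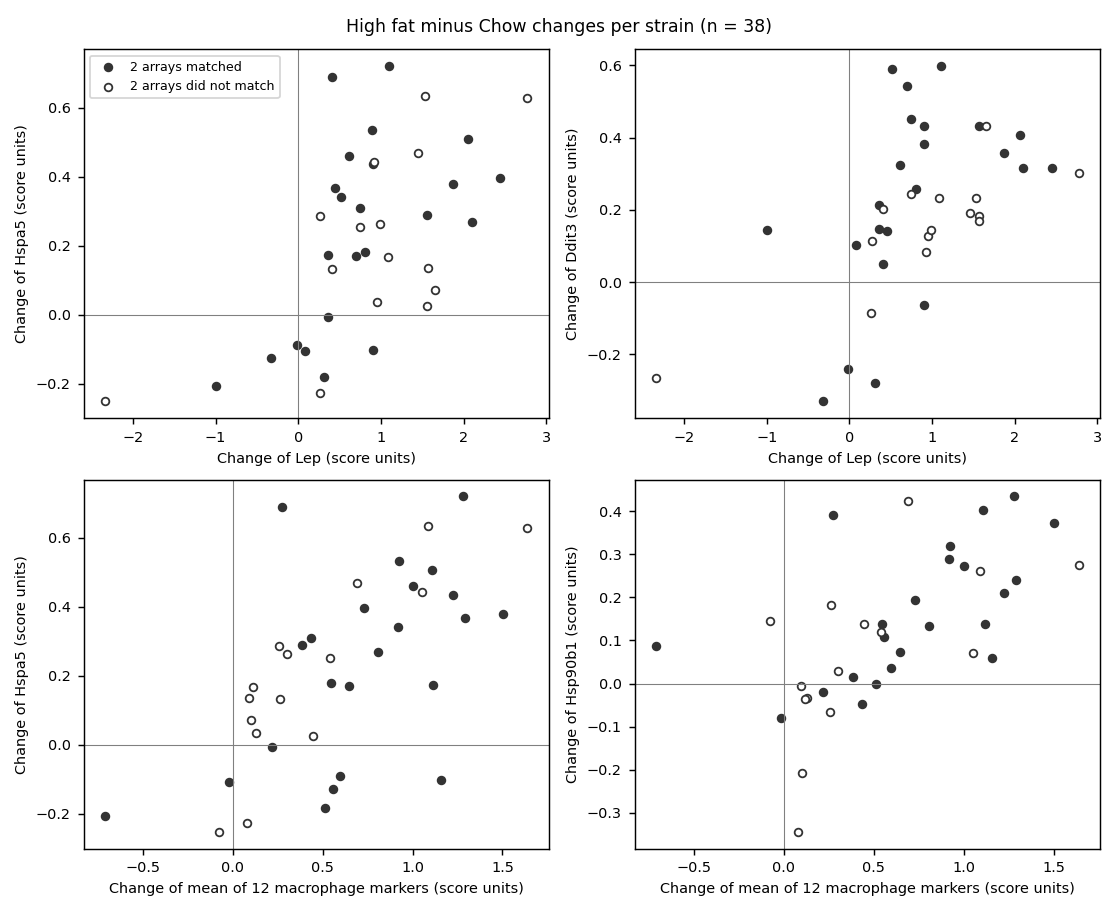
Change (High fat minus Chow, score units) of Hspa5 and Ddit3 against the change of Lep, and of Hspa5 and Hsp90b1 against the change of the mean of 12 macrophage markers, 1 point per strain (n = 38); filled points are strains whose 2 arrays matched. Points run from lower left to upper right in each panel, with r from 0.55 to 0.64.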

How the data were processed

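RNA pools of male mouse subcutaneous fat were hybridized to Affymetrix arrays, 1 per strain and diet. Affymetrix Expression Console and RMA are named in the submitters' processing notes. What the authors deposited is a score that averages 8, with an SD of 2, on each array; the rescaling step is not given in the sources used here, and log2 values had been assumed when the design was written. Array scores correlated with the mean array at 0.98 or more. The feature with the highest mean stood for each symbol. Diet was tested with limma 3.58.1 (R 4.3.3) in 38 strains with strain as a fixed block, paired by the strain label; strains were tested with its moderated F and the parents by a contrast. Correlations used 100000 permutations, two-sided. All p-values were adjusted over all genes by Benjamini-Hochberg.

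The members and gene lists were chosen with earlier results of these data known. Mbtps2 and Aars were not matched. Named genes are all members and sensors, the 4 largest called changes of each other list, the 10 genes most like the members' mean and the 3 most like each member, Lep, and first-listed tissue markers; other genes named were picked after their values were seen. A gene that this rule names is not reported here. Alternatives were quantile normalization, the mean of all features, a filter on low genes, B cell, skeletal muscle and keratinocyte marker means as covariates, no or random strain block, robust regression, and other sets of strains. The set of 23 matching strains (own correlation of at least 0.5) was chosen after seeing the data. The fits were tested on simulated data. The labels give no array batch.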

Additional observations from a re-analysis of the deposited data

How the results depend on the processing

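The number of members higher on High fat stayed between 6 and 8 in every alternative run (7 as reported; 7 to 8 when 1 strain was left out, and 6 after quantile normalization), and the number lower was 0 except after quantile normalization (1, Pdia4). Leaving out a strain kept the number lower at 0. Without the lowest 40% of genes, 9449 of the genes kept were higher and 4614 lower. Fewer genes were tested there, so these counts cannot be set beside the counts over all genes. In that setting 2 members were called between strains. The 23 matching strains called 3 members and 6859 genes (17.7% of all genes) between strains, and the 36 BXD strains without the parents 1949 genes. Strain calls of Hspa5 and Herpud1 moved across the threshold under quantile normalization, tissue covariates and without BXD80, BXD97 and BXD103; the cause was not tested. With tissue covariates, 0 degradation genes were lower, and 7 translocation genes were higher and 2 lower. In the 23 strains, 0 degradation and 0 translocation genes were lower, beside 22.2% of all genes. There 0 members were called against Lep (4.91% of all genes), 1 against macrophages (1.6%) and 0 against plasma cells. For likeness between diets 1 member was called there (11.2% of all genes). Quantile normalization called 1 member (Hspa5, r = -0.52, permutation adjusted p = 0.0308) against muscle. Without the strain block, 7 members were again higher. Where this paragraph gives no share of all genes beside a count of members, that count has no background to be read against. Depth does not apply to arrays; their number limits precision.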
